A study of Homo sapiens with 8 samples.

Results

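The response common to EerI, CBU-028 and 5-NA was examined by setting the 6 treated arrays, of 8 arrays in all, against the 2 arrays of control cells. The cells were 293T, derived from human embryonic kidney and expressing the large T antigen of SV40, and all groups were this same line with 2 arrays each. The treated cells received EerI, CBU-028 or 5-NA at 10 µM for 10 h. No compound is named for the control cells, and the sources do not say whether they received solvent. EerI (eeyarestatin I) was described in the study as an inhibitor of p97 composed of a nitrofuran-containing group and an aromatic domain, and 5-NA (5-nitrofuryl-acrolein) corresponds to the nitrofuran-containing group alone. CBU-028 is a related compound of the study known by its code. The comparison asks which transcripts moved in the same direction with every compound, at matched dose and time. Probe sets were kept where all 6 treated arrays lay above both control arrays, or all 6 below, and were ranked by the smallest of the 3 differences of group means.

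A point about the labels bears on every value of 5-NA. The titles of its arrays carry an experiment number that the study's compound list gives to a different compound, whereas their source and description name 5-NA. The overall counts and those of several gene lists are therefore also given for EerI and CBU-028 alone. The values are log2 expression values on which the arrays had been brought to a common distribution. A general change in RNA per cell would therefore not be seen, and the differences are relative to the other transcripts. Duplicates differed by a residual SD of 0.0921 in control, 0.0974 with EerI, 0.163 with CBU-028 and 0.119 with 5-NA. Of 7 genes known from this kidney line, VIM lay between 13.66 and 13.77 over the arrays, NEFL between 13.13 and 13.63 and NEFM between 9.70 and 10.27, whereas PAX2, LHX1 and CDH2 lay between 6.58 and 8.0. Of markers of other cell types, the leukocyte gene PTPRC lay between 4.40 and 4.86. The B cell gene MS4A1 lay between 5.01 and 5.71, but CD79A between 7.43 and 7.87. The epithelial genes KRT5 and CDH1 lay between 5.64 and 6.15, but EPCAM reached 9.19. EPCAM was 0.86 above control with 5-NA, against 0.03 with EerI and 0.05 with CBU-028. Of fibroblast genes, COL1A2, DCN and LUM lay between 4.66 and 6.89, but COL1A1 reached 9.36. Values of different probe sets are not on a common scale. A control probe set for 28S ribosomal RNA, AFFX-M27830_5_at, was itself beyond both controls on all 6 treated arrays. It was at 12.66 and 12.62 in control, 12.95 and 12.93 with EerI, 12.89 and 13.11 with CBU-028, and 14.02 and 14.04 with 5-NA, and its part in the results was not tested.

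As background, p97 is an ATPase that extracts ubiquitinated proteins from the endoplasmic reticulum (ER) membrane during ER-associated degradation (ERAD), so that the proteasome can destroy them. When misfolded proteins accumulate in the ER, the unfolded protein response (UPR) is triggered through the sensors PERK, IRE1 and ATF6. PERK phosphorylates the translation factor eIF2alpha, which lowers protein synthesis in general but favours translation of ATF4, a transcription factor for genes of amino acid supply and redox balance. Other eIF2alpha kinases feed into the same branch, which is then called the integrated stress response. A separate pathway, through the transcription factor NRF2, is turned on by electrophiles and oxidants.

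Many probe sets lay beyond both controls on all 6 treated arrays, but mostly by small amounts. Of 54675 probe sets, 3944 lay above both controls on all 6 treated arrays (7.21%) and 4637 lay below (8.48%), in 2384 and 3103 named genes. For a probe set whose 8 arrays were exchangeable, the probability of lying beyond both controls in this way, on either side, would be 0.0714. The median of the smallest of the 3 differences was 0.15 for the former and -0.14 for the latter. Only 118 of those above and 52 of those below reached 0.5 in each of the 3 differences. A change of at least 2-fold with every compound was found for 27 probe sets upward (0.0494%) and 2 downward (0.00366%), which represent 19 and 2 genes. The 3 differences share the 2 control arrays, so a deviation of the controls moves all 3 in the same direction.

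To ask whether a probe set differed from control with each compound, the largest of its 3 p-values from limma was adjusted over all probe sets by the Benjamini-Hochberg method. At an adjusted p under 0.05, 62 probe sets of 45 genes were higher with all 3 compounds (0.113%) and 15 probe sets of 11 genes were lower (0.0274%). The smallest of the 3 differences ranged from 0.56 to 2.94 among the 62 and from 0.54 to 1.10 in size among the 15. All 29 probe sets past 2-fold were among those that passed. At an unadjusted p under 0.05 the counts were 888 and 1105. The 62 rises became 27 to 34 when any single control, EerI or 5-NA array was left out. An exact permutation test of 6 arrays against 2 cannot give a two-sided p below 0.0714, so these tests borrow the spread across probe sets. Without the arrays of 5-NA, EerI and CBU-028 alone had in common 6541 probe sets above and 6978 below both controls, 49 and 3 past 2-fold, and 107 higher and 25 lower by the same test.

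**Figure D1:**
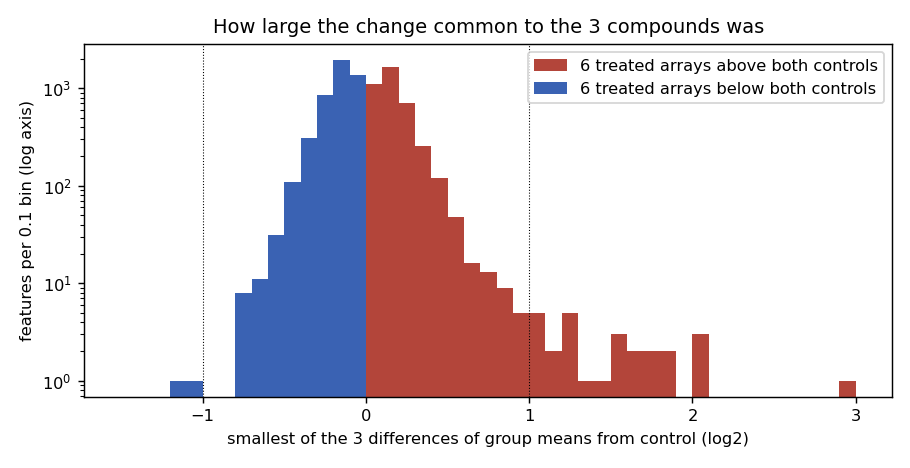
Distribution of the smallest of the 3 differences from control (log2 axis values, EerI, CBU-028 and 5-NA against the mean of the 2 control arrays) for the 3944 probe sets with all 6 treated arrays above both controls and the 4637 with all 6 below, on a log count axis. The dotted lines mark 2-fold, beyond which lie 27 probe sets on the right and 2 on the left.

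The highest-ranked rise was HMOX1, the gene of heme oxygenase 1, which breaks down heme. Its log2 values were 9.82 and 9.86 in control cells, 12.77 and 12.78 with EerI, 13.68 and 13.47 with CBU-028, and 13.07 and 13.01 with 5-NA. The smallest of the 3 differences was thus 2.94, with EerI (SE 0.0905, adjusted p = 5.74e-06 from limma), a 7.66-fold rise, and the treated arrays were separated from the controls by 2.92, more than the 0.91 they spanned among themselves. It was followed by SLC7A11, the transport subunit of the cystine/glutamate exchanger that supplies cysteine for glutathione. SLC7A11 was at 8.74 and 8.58 in control, 11.53 and 11.57 with EerI, 11.63 on both CBU-028 arrays, and 10.65 and 10.83 with 5-NA, and all 3 of its probe sets rose more than 2-fold with each compound. Here 5-NA gave the smallest difference (2.08, adjusted p = 4.17e-05 from limma). SLC3A2, the heavy chain that pairs with SLC7A11 and with other light chains at the membrane, was high already in control cells at 10.69 and 10.61. It rose to 12.26 and 12.30 with EerI, 12.34 and 12.36 with CBU-028, and 12.30 and 12.08 with 5-NA, so that EerI and 5-NA overlapped and CBU-028 lay just above them (smallest difference 1.54, adjusted p = 0.000293 from limma).

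Genes of glutathione turnover were found on both its supply and its breakdown. CHAC1, an enzyme that cleaves glutathione and a well known ATF4 target, was at 7.28 and 7.49 in control, 10.64 and 10.61 with EerI, 11.01 and 10.88 with CBU-028, and 9.61 and 9.21 with 5-NA. Its smallest difference was 2.02 with 5-NA, against 3.24 with EerI and 3.56 with CBU-028 (adjusted p = 0.000408 from limma). CTH, which makes cysteine from cystathionine, rose from 9.19 on both control arrays to 11.10 and 11.14 with EerI, 11.38 and 11.13 with CBU-028, and 10.52 and 10.36 with 5-NA. Its other probe set lay above both controls but did not pass (smallest difference 0.91, adjusted p = 0.155 from limma). GCLM, the modifier subunit of the enzyme that starts glutathione synthesis, lay just short of 2-fold, at 0.98 with EerI, 1.42 with CBU-028 and 1.53 with 5-NA. All 3 of its probe sets lay above both controls, and 2 passed limma's test.

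Transcription factors of the basic leucine zipper class made up 5 of the 20 highest-ranked genes. ATF3, a stress-induced member of the ATF family, was at 9.77 and 9.89 in control, 11.70 on both EerI arrays, 12.75 and 12.60 with CBU-028, and 11.99 and 11.72 with 5-NA. DDIT3, which encodes CHOP, was at 8.50 and 8.49 in control, 10.27 and 10.37 with EerI, 10.94 and 10.77 with CBU-028, and 10.16 and 9.92 with 5-NA. For both genes the CBU-028 arrays were the highest and stood apart from those of the other compounds. JDP2, a repressor related to the Jun and ATF3 proteins, rose by 1.92, 2.27 and 1.36 with EerI, CBU-028 and 5-NA. CEBPG, a partner of ATF4 in heterodimers, rose by 1.25, 1.94 and 1.74, and CEBPB by 1.32, 1.57 and 1.03. The smallest rise of these 5 genes passed limma's test with adjusted p-values from 0.000249 for ATF3 to 0.00211 for CEBPB. JDP2 has a second, dim probe set whose arrays overlapped with control. The third probe set of ATF3 lay above both controls but did not pass (smallest difference 0.32, adjusted p = 0.526 from limma).

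Because many of these genes are known targets of ATF4, its binding motif was looked for in the window from 250 bases before to 50 after the gene start (RefSeq, GRCh38.p14). The C/EBP-ATF response element was searched as TGATGNAAN on both strands. It was present in 4 of the 16 genes past 2-fold with a promoter in the table, namely CHAC1, ATF3, SLC3A2 and HERPUD1, as it was in 1002 of all 27305 promoters (3.67%). The 3 highest-ranked of these promoters are printed because they belong to genes with some of the largest common rises, with the match in capitals.

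CHAC1 (chr15:40953221-40953520, + strand): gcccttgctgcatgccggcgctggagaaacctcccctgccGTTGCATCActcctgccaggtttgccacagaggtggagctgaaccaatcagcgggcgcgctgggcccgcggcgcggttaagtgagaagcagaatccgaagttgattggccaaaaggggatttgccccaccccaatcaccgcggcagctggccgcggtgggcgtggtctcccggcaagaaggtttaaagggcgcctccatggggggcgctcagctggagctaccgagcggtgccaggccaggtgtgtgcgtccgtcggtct

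ATF3 (chr1:212565157-212565456, + strand): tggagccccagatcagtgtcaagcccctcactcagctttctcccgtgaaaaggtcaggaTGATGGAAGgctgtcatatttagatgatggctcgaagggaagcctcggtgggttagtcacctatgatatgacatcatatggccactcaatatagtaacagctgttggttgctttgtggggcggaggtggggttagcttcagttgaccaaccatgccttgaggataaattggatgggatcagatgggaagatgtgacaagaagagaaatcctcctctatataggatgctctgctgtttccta

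SLC3A2 (chr11:62881449-62881748, + strand): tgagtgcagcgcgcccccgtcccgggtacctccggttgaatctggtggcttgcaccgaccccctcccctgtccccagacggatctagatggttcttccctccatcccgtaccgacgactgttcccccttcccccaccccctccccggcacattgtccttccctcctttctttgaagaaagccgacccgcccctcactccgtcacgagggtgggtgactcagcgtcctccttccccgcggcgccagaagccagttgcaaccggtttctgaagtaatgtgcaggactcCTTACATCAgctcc

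The match starts at position -210 from the gene start in CHAC1 and -191 in ATF3, and 36 bases past the start in SLC3A2. In CHAC1 and SLC3A2 it is read on the opposite strand. The cAMP response element, searched as TGACGTCA, was found among the 17 named rises with a promoter only in IFRD1 (1.98% of all promoters), and the antioxidant response element, searched as TGACNNNGC, in STC2, SLC3A2 and GCLM (13.6% of all promoters). The heat shock element, searched as GAANNTTC, was found in none of these 17 but in IGFBP5 and DEPP1 among the 8 named falls with a promoter (6.87% of all promoters). These are matches of letters in a short window, and the binding of any factor was not measured.

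Inhibitors of growth signalling were among the common rises. SESN2, a leucine sensor that restrains mTORC1, was at 8.58 and 8.49 in control, 10.33 and 10.34 with EerI, 11.17 and 10.61 with CBU-028, and 10.85 and 10.59 with 5-NA. Its 2 CBU-028 arrays differed by about as much as the treated groups did, which is reflected in a larger SE of 0.163 (smallest difference 1.80, adjusted p = 0.00291 from limma). A second probe set of SESN2, also past 2-fold, had an SE of 0.081. On it CBU-028 was 0.55 above EerI (adjusted p = 0.00447 from limma) and 5-NA 0.66 above EerI (adjusted p = 0.00226). There 5-NA minus CBU-028 was 0.10 (adjusted p = 0.523). DDIT4, another inhibitor of mTORC1, was at 9.44 and 9.24 in control, 11.83 and 11.79 with EerI, 11.80 and 11.81 with CBU-028, and 10.56 and 10.41 with 5-NA. CBU-028 minus EerI was -0.0026 for DDIT4 (95% interval -0.22 to 0.21), while 5-NA gave less than either of them. SLC1A4, a carrier of neutral amino acids, rose by 1.74, 2.26 and 1.67 with EerI, CBU-028 and 5-NA, and 3 of its 5 probe sets passed limma's test.

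Among secreted factors, STC2, a glycoprotein hormone induced by ER stress, was at 7.94 and 7.91 in control, 10.35 and 10.27 with EerI, 10.91 and 10.97 with CBU-028, and 9.84 and 9.72 with 5-NA. Every pair of compounds differed by limma's test on this probe set of STC2, whereas on a second one, also past 2-fold, 5-NA minus EerI was -0.037 (adjusted p = 0.871). VEGFA, the angiogenic growth factor, rose by 1.10, 1.32 and 1.08 on its leading probe set, and its other 3 probe sets lay above both controls as well. Only 2 of its 4 probe sets passed limma's test. TAC1, the precursor of the neuropeptide substance P, had a low level. It was at 6.86 and 6.68 in control, 7.86 and 7.92 with EerI, 7.97 and 7.96 with CBU-028, and 8.21 and 8.16 with 5-NA.

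HERPUD1, an ER membrane protein of the ERAD complex that is induced by the UPR, had the largest common rise of the 22 ERAD genes measured. It was at 11.05 and 11.12 in control, 12.34 and 12.47 with EerI, 12.31 and 12.33 with CBU-028, and 12.27 and 12.03 with 5-NA (smallest difference 1.07, adjusted p = 0.0033 from limma). Its second, dim probe set was above both controls but did not pass the test. The transcriptional coregulator IFRD1 rose by nearly the same amount with every compound, by 1.28, 1.26 and 1.27, and ARRDC3, an arrestin-like adaptor, by 1.0, 1.08 and 1.06. At the 2-fold limit, the last genes inside were CEBPB at 1.03 and ARRDC3 at 1.0, and the first outside were GCLM at 0.98 and NIBAN1 at 0.97.

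**Figure D2:**
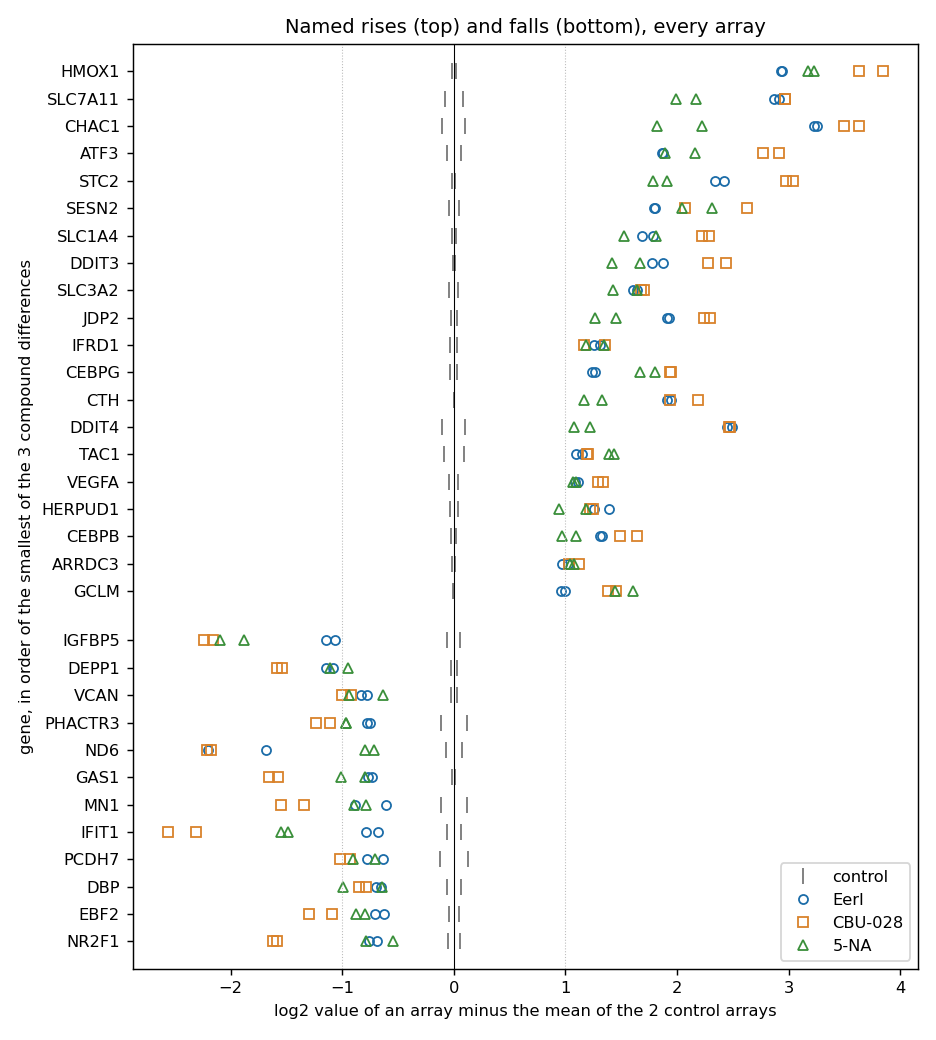
Log2 value of every array minus the mean of the 2 control arrays (x axis) for the 20 highest-ranked rises and 12 highest-ranked falls (y axis), with grey ticks for control, EerI as circles, CBU-028 as squares and 5-NA as triangles. In each gene all 6 treated arrays lie on the same side of both controls, from HMOX1, where the smallest group difference is 2.94, to GCLM at 0.98 among the rises, and the falls stay smaller except for single compounds.

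Past 2-fold, and past limma's test after adjustment, falls common to the 3 compounds were fewer than rises. IGFBP5, a secreted binding protein of insulin-like growth factors, was at 8.49 and 8.37 in control, 7.36 and 7.28 with EerI, 6.18 and 6.27 with CBU-028, and 6.34 and 6.54 with 5-NA. The smallest of its differences was -1.10, with EerI (adjusted p = 0.00228 from limma). However, only this probe set of 6 for the gene passed, 1 other was below both controls and 4 overlapped with control, so the fall rests on that probe set. DEPP1, a target of FOXO factors, was at 8.86 and 8.80 in control, 7.75 and 7.69 with EerI, 7.25 and 7.29 with CBU-028, and 7.88 and 7.73 with 5-NA (smallest difference -1.03, adjusted p = 0.0018 from limma). Its second probe set was below both controls at -0.21 to -0.36 without passing the test.

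VCAN, the matrix proteoglycan versican, was the next fall. It was at 7.92 and 7.98 in control, 7.12 and 7.17 with EerI, 7.03 and 6.95 with CBU-028, and 7.01 and 7.31 with 5-NA, and all 5 of its probe sets were below both controls, 2 of them past the test, although VCAN passed in only 3 of the 8 fits that left out 1 array. Of the other falls named by rank, PHACTR3, GAS1, IFIT1 and EBF2 passed limma's test with adjusted p-values from 0.0184 to 0.04, but each of them lost it when some single arrays were left out. GAS1 and EBF2 each have 3 probe sets, of which 2 were below both controls and only 1 passed. ND6, a mitochondrially encoded subunit of complex I, was at 12.20 and 12.06 in control, 9.93 and 10.45 with EerI, 9.92 and 9.96 with CBU-028, and 11.42 and 11.33 with 5-NA, and did not pass (adjusted p = 0.19). MN1, PCDH7, DBP and NR2F1 did not pass either (adjusted p from 0.0507 to 0.104). Only 1 of 5 probe sets of PCDH7 and 1 of 2 of DBP lay below both controls. The interferon-induced gene IFIT1 had the most unequal falls, at -0.73 with EerI, -2.44 with CBU-028 and -1.52 with 5-NA.

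The compounds were then compared with each other, where the control arrays enter only the estimate of the spread. The 3 pairs were tested with p-values adjusted over all probe sets and pairs together. Over all probe sets, 5.22% differed between CBU-028 and EerI, 12.2% between 5-NA and EerI, and 10.1% between 5-NA and CBU-028. Among the 27 common rises past 2-fold, 10 were higher with CBU-028 than with EerI and none was lower. With 5-NA, 16 were lower than with CBU-028 and none was higher, while 7 were lower and 2 higher than with EerI. The median difference from control of these 27 was 1.66 with EerI, 2.20 with CBU-028 and 1.54 with 5-NA. CBU-028 gave the largest of the 3 differences in 20 probe sets, EerI in 5 and 5-NA in 2, and 5-NA gave the smallest in 19. The 27 were chosen for their size with all 3 compounds, so these counts describe this set. Over all 3944 probe sets above both controls the order was another. There EerI gave the smallest difference in 2505 and 5-NA in 909, while CBU-028 gave the largest in 1884 and 5-NA in 1660. The medians were 0.18 with EerI, 0.30 with CBU-028 and 0.28 with 5-NA. By the direct test 5-NA was higher than EerI in 604 of them and lower in 61.

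The common rises took up different shares of each compound's own response past 2-fold. The 27 common rises were 54% of the 50 probe sets that were above both controls and at least 2-fold up with EerI, 19.3% of the 140 with CBU-028 and 10.2% of the 264 with 5-NA. Downward, the 2 common falls compared with 4 falls of that size with EerI, 96 with CBU-028 and 71 with 5-NA.

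For 9 of the 27 rises no pair of compounds differed past the threshold. For IFRD1 the difference between CBU-028 and EerI was -0.02 (95% interval -0.23 to 0.20) and that between 5-NA and CBU-028 was 0.0019 (-0.21 to 0.22). For ARRDC3 the corresponding intervals were -0.10 to 0.25 and -0.19 to 0.16, and for SLC3A2 they were -0.14 to 0.27 and -0.36 to 0.05. These intervals, which are not adjusted for the number of genes, leave room for differences of up to about the size of their bounds. In contrast, for ATF3 the CBU-028 arrays exceeded those of EerI by 0.97 (adjusted p = 0.00152 from limma). For the same gene 5-NA minus CBU-028 was -0.82 (adjusted p = 0.00291), whereas between 5-NA and EerI it differed by 0.16 (adjusted p = 0.449, 95% interval -0.09 to 0.40). HMOX1 was highest with CBU-028 too, 0.80 above EerI (adjusted p = 0.00167 from limma).

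GCLM had its smallest difference with EerI on each of its 3 probe sets. On its leading probe set it was higher than with EerI by 0.44 with CBU-028 (adjusted p = 0.0132 from limma) and by 0.55 with 5-NA (adjusted p = 0.00536). For CEBPG the probe sets disagreed. The leading one was higher than with EerI by 0.69 with CBU-028 (adjusted p = 0.00186 from limma) and by 0.49 with 5-NA (adjusted p = 0.00752), whereas on the other, at 1.14 with EerI, 1.57 with CBU-028 and 0.73 with 5-NA, 5-NA minus EerI was -0.41 (adjusted p = 0.0131). The leading probe sets of SLC7A11, CTH and DDIT4 had yet another pattern, in which 5-NA was lower than both others while CBU-028 and EerI did not differ past the threshold (95% interval -0.13 to 0.29 for SLC7A11 and -0.10 to 0.36 for CTH). For SLC7A11 the difference between 5-NA and EerI was -0.81 (adjusted p = 0.00177 from limma), and for CTH it was -0.68 (adjusted p = 0.00472). On the third probe set of SLC7A11, 5-NA did not differ past the threshold from EerI (-0.16, adjusted p = 0.615) or CBU-028 (-0.47, adjusted p = 0.103). EerI contains the nitrofuran-containing group together with the aromatic domain, and 5-NA corresponds to the former alone. Whether the aromatic domain has a part in the differences between 5-NA and EerI was not tested.

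Whole pathways were then examined through 19 gene lists, with every gene represented by its brightest probe set over the arrays. Over all 19775 genes measured in this way, 7.72% lay above and 11.2% below both controls on all 6 treated arrays, and 0.207% passed limma's test as higher and 0.0354% as lower with all 3 compounds. The median difference over all genes was -0.0016 with EerI, -0.0099 with CBU-028 and -0.027 with 5-NA. The list with the highest share above was that of PERK/ATF4 targets. Of 29 measured, 27 lay above both controls, none below, and 18 rose with each compound by limma's test, of which the count was 12 without any single control, EerI or 5-NA array. The list's median difference was 1.26 with EerI, 1.43 with CBU-028 and 0.87 with 5-NA. Of the 19 genes past 2-fold, 11 were on this list, and SLC7A11, SLC3A2 and SLC1A4 were on that of amino acid transporters. Many members are genes by which such a response was recognised in these same data, so the counts are not independent evidence of its direction.

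The exceptions on the list were ATF5 and GDF15, whose treated and control arrays overlapped. ATF5 was at -0.13 with EerI, -0.30 with CBU-028 and 0.04 with 5-NA, and GDF15 at 0.08, 0.84 and 0.80. ATF4 itself, singled out here after its values were seen, was at 13.17 and 13.25 in control, 13.99 and 14.00 with EerI, 13.90 and 13.81 with CBU-028, and 13.78 and 13.60 with 5-NA. Its 6 treated arrays lay above both controls but its smallest difference of 0.48 did not pass (adjusted p = 0.168 from limma), while with EerI and CBU-028 alone it did (adjusted p = 0.0353). Within the list, the direct test between compounds placed 18 genes lower and 2 higher with 5-NA than with CBU-028, against 7.03% and 6.19% of all genes. With 5-NA, 13 were lower and 4 higher than with EerI, against 8.49% and 7% of all genes. CBU-028 was above EerI for 9 genes and below for 1, against 2.74% and 3.58%.

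**Figure D3:**
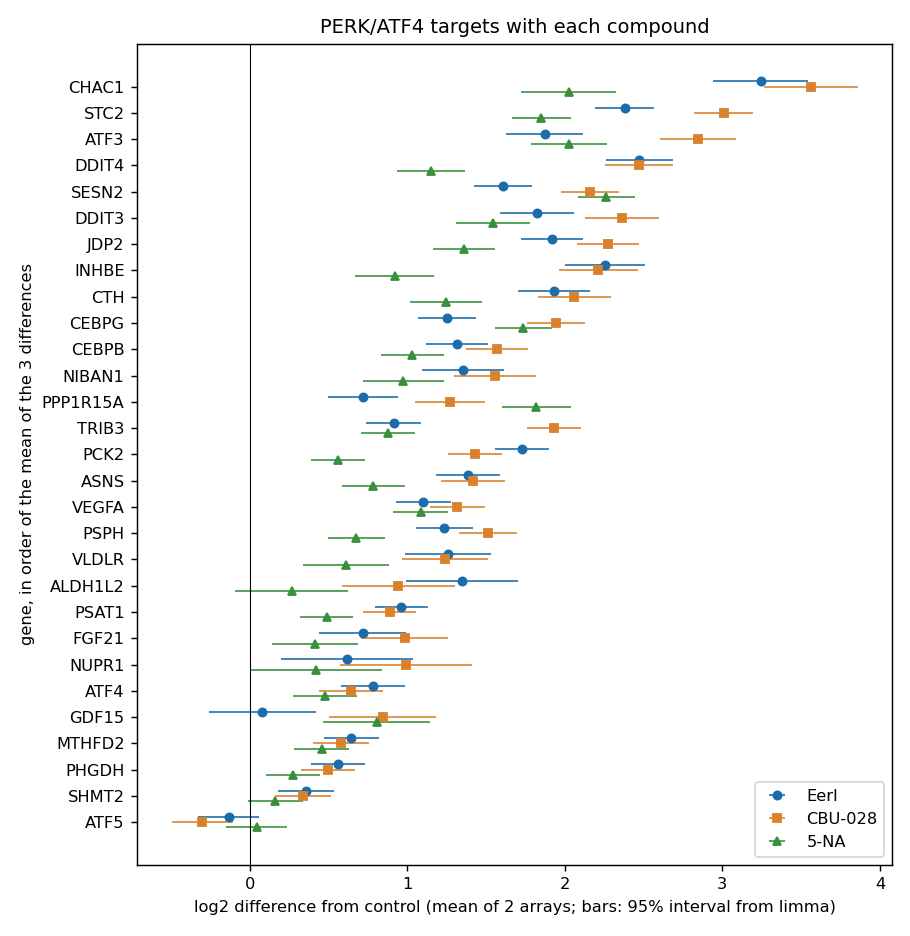
Log2 difference from control of the 29 measured PERK/ATF4 genes with each compound (x axis, mean of 2 arrays, bars for the 95% interval from limma), each gene by its brightest probe set (y axis). For most genes the circles of EerI and squares of CBU-028 lie to the right of the triangles of 5-NA, and ATF5 at the bottom stays near 0 or below.

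Amino acid supply moved in part. Of 13 amino acid transporters, 8 lay above both controls and 6 of them passed limma's test, a count of 3 without any control or EerI array, 2 without 5-NA replicate 1 and 4 without 5-NA replicate 2. Besides SLC7A11, SLC3A2 and SLC1A4, the neutral amino acid exchanger SLC7A5 rose by 0.77 with EerI, 0.80 with CBU-028 and 1.0 with 5-NA (adjusted p = 0.018). SLC7A6 went the other way, with all 6 arrays below both controls at differences of -0.19, -0.07 and -0.08 that did not pass. The cytosolic tRNA synthetases, which charge tRNAs with amino acids, shared less. Of 17 measured, 7 lay above both controls and 1, VARS1, below, and CARS1 alone passed, at 1.07 with EerI, 1.16 with CBU-028 and 0.64 with 5-NA (adjusted p = 0.0163 from limma), but not when any single control, EerI or 5-NA array was left out. Their median difference was 0.38 with EerI and 0.34 with CBU-028 but -0.0029 with 5-NA. By the direct test 9 of the 17 were lower with 5-NA than with EerI, against 8.49% of all genes.

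The NRF2 list had 12 of 21 genes above both controls and none below, and HMOX1, SLC7A11 and GCLM passed limma's test. GCLM stood on this list by its brightest probe set, not its leading one. There it was at 0.82 with EerI, 1.36 with CBU-028 and 1.48 with 5-NA. MAFG, a small MAF partner of NRF2, lay above both controls at 0.54 with EerI, 1.0 with CBU-028 and 1.68 with 5-NA, and TXNRD1, thioredoxin reductase 1, at 0.40, 0.59 and 0.81, but neither passed (adjusted p = 0.158 and 0.16). The list's median difference was 0.13 with EerI, 0.28 with CBU-028 and 0.32 with 5-NA, so its order differed from that of the PERK/ATF4 list. In the direct test 8 genes of the list were higher and 1 lower with 5-NA than with EerI, against 7% and 8.49% of all genes.

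Other branches of protein quality control were represented by few genes. Of 22 ER chaperones and folding genes, 6 lay above both controls and 1, the oxidoreductase ERO1A, below. The transcription factor XBP1, target of IRE1, was at 9.90 and 9.99 in control, 11.04 and 11.11 with EerI, 11.28 and 11.17 with CBU-028, and 10.86 and 10.81 with 5-NA, and passed (smallest difference 0.89, adjusted p = 0.0033 from limma). HSPA13 passed too, at 0.70, 0.83 and 0.64 with EerI, CBU-028 and 5-NA (adjusted p = 0.0316), but neither gene did without control replicate 1 or either 5-NA array. HSPA5, the ER chaperone BiP and the classical UPR marker, singled out after its values were seen, was not part of the common response. It was at 13.11 and 13.23 in control, 13.57 and 13.58 with EerI, 13.10 and 13.01 with CBU-028, and 13.73 and 13.59 with 5-NA, so that the CBU-028 arrays lay just below the lower control array.

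Of 22 genes of the ERAD machinery, 7 lay above both controls and none below, but only HERPUD1 passed. SELENOS was at 0.36, 0.40 and 0.32 with EerI, CBU-028 and 5-NA, and SEL1L, the scaffold of the HRD1 ubiquitin ligase, at 0.14, 0.26 and 0.17. VCP, the gene of p97 itself, was at 11.73 on both control arrays, 11.71 and 11.67 with EerI, 11.66 and 11.54 with CBU-028, and 12.05 and 11.95 with 5-NA, so no common direction was seen. Among 27 proteasome subunits, 6 lay above both controls and 1 below, no gene passed limma's test adjusted or at an unadjusted p under 0.05, and the median differences stayed between 0.025 and 0.081. None passed the methods' ANOVA after adjustment either, but that test passed only 4 PERK/ATF4 targets, so this says little.

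Few heat shock genes were part of the common response. Of 20 genes measured, 3 lay above and 2 below both controls, and ZFAND2A, a zinc finger gene induced by proteotoxic stress, was the only gene that passed. It was at 9.31 and 9.27 in control, 10.05 and 10.17 with EerI, 11.11 and 11.10 with CBU-028, and 11.91 and 11.71 with 5-NA, rising in that order with every pair different. HSPA6, an inducible Hsp70, lay above both controls on all 6 arrays, but at 0.36 with EerI and 0.21 with CBU-028 against 3.08 with 5-NA. Immediate early genes gave 4 of 21 above and none below, with only the phosphatase gene DUSP1 past the test at 0.56, 0.81 and 1.20 for EerI, CBU-028 and 5-NA (adjusted p = 0.0313 from limma). In p53 targets, 3 of 17 lay above and 2 below. GADD45A, a growth arrest gene, was the one that passed, at 0.60 with EerI, 1.60 with CBU-028 and 1.58 with 5-NA (adjusted p = 0.0296). DUSP1 and GADD45A lost the test without any single control, EerI or 5-NA array, and ZFAND2A without any control or EerI array.

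A pair of lists pointed downward without single genes passing. Of 17 genes of sterol and fatty acid synthesis, 8 lay below both controls and none above, and of 22 mitosis and G2/M genes 11 lay below and none above, against 11.2% of all genes below. No gene of either list passed limma's test after adjustment, while 4 and 3 were lower at an unadjusted p under 0.05 from limma, against 2.89% of all genes. None passed the methods' ANOVA after adjustment either, but that test passed so few probe sets at all that this says little. SQLE, squalene epoxidase, was at 12.17 and 12.21 in control, 11.51 and 11.47 with EerI, 11.54 and 11.30 with CBU-028, and 11.77 and 11.71 with 5-NA (smallest difference -0.46, adjusted p = 0.237). CCNB1, cyclin B1, was at 12.76 and 12.87 in control, 12.55 and 12.58 with EerI, 12.06 and 11.92 with CBU-028, and 12.26 and 12.23 with 5-NA. In the mitosis list 12 of 22 genes were lower with CBU-028 than with EerI by the direct test, against 3.58% of all genes. The 3 differences were thus unequal in size.

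Of 16 ribosome assembly factors, too, none lay above and 4 below both controls. The other lists had members on both sides or few beyond the controls. Of 15 genes of the BCL2 family, 2 lay above and 3 below both controls. PMAIP1, which encodes the pro-apoptotic protein NOXA, was above both on all 6 arrays at 0.79 with EerI, 1.05 with CBU-028 and 0.57 with 5-NA, and did not pass (adjusted p = 0.16 from limma). DNA replication genes gave 4 above and 4 below of 23, and interferon-induced genes 3 above and 2 below of 20. Hypoxia-response genes gave 2 above, including VEGFA, and 1 below of 21. Targets of TGF-beta, BMP and Notch gave 3 above and 3 below of 12, and of 7 genes of IGF-binding proteins none lay beyond the controls, where IGFBP5 is represented by a probe set that overlapped with control.

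With the arrays of EerI and CBU-028 alone, 13% of all genes lay above and 16.8% below both controls, and 0.339% passed limma's test as higher and 0.0809% as lower with both compounds. PERK/ATF4 targets then had 27 above, 1 below and 22 past the test, with ATF4, PSAT1, MTHFD2 and VLDLR added. Of the cytosolic tRNA synthetases 12 lay above and YARS1 passed besides CARS1. Amino acid transporters had 10 above, 1 below and 7 past the test, with SLC6A9 added. Among ER chaperones and folding genes DNAJB9 passed besides XBP1 and HSPA13. Mitosis and G2/M genes had 13 below and 0 above, with none past the test. No interferon-induced gene passed as lower, so IFIT1 did not pass without the 5-NA arrays. Proteasome subunits had 12 above and 3 below, none past the test. In the BCL2 family PMAIP1 (adjusted p = 0.0309 from limma) and HRK (adjusted p = 0.0393), which encodes a BH3-only protein, now passed as higher. In sterol and fatty acid synthesis 12 lay below and INSIG1, a sterol-regulated inhibitor of that pathway, passed as lower (adjusted p = 0.0339 from limma). Immediate early genes had 7 above and 3 below, DNA replication genes 8 above and 5 below, heat shock genes 3 above and 4 below, and ribosome assembly factors 1 above and 6 below.

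**Figure D4:**
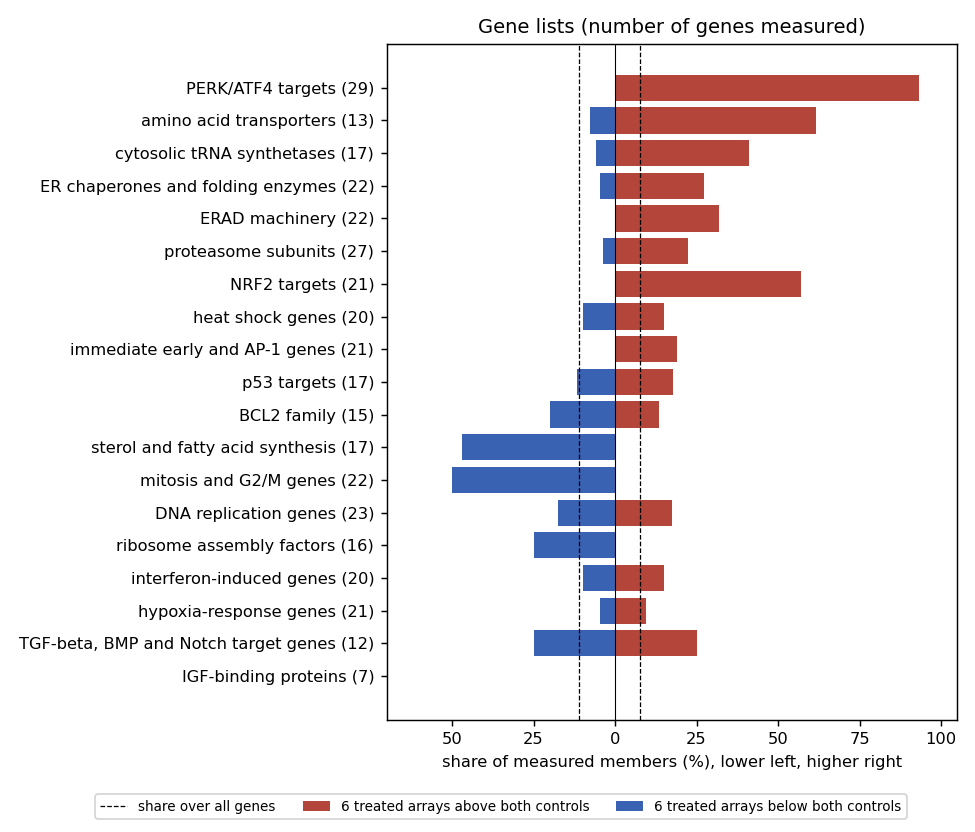
Share of the measured genes of each list (y axis, with the number measured) whose 6 treated arrays all lay above both controls (red, to the right) or all below (blue, to the left), in percent. Dashed lines give the shares over all 19775 genes, 7.72% above and 11.2% below. The PERK/ATF4 list reaches 93.1% above, and mitosis and G2/M genes reach 50% below.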

How the data were processed

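RNA of 8 samples of 293T cells was measured on Affymetrix arrays. Per the labels and methods, the authors processed the signals with RMA and used Partek, versions not given, and deposited log2 values. The methods name another array of the HG-U133 family than the HG-U133 Plus 2.0, to which the probe sets belong. The labels name an RNeasy kit for the RNA, and the methods TRIzol with RNeasy MinElute. Groups were taken from the descriptions.

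A mean per group was estimated from all 8 arrays by limma 3.58.1 under R 4.3.3 (4 residual and 5.08 prior degrees of freedom), and the number of arrays limits the precision (median SE 0.099 for a log2 difference from control). Changes common to 3 compounds were tested by an intersection-union test, the largest of the 3 two-sided p-values where the signs agree, with Benjamini-Hochberg adjustment at 0.05. Pairs of compounds were adjusted jointly. The methods describe treatment in duplicate, so p-values measure the spread between 2 samples a group of 1 cell line. Of 54675 probe sets, 41097 had 1 gene symbol, 1801 several and 11777 none, and only the first were named. Named are the 20 highest-ranked rises and 12 falls, each by its highest-ranked probe set, list members with the largest mean difference or against their list, and probe sets next to the 2-fold limit. The 19 lists, the members and the tests were chosen with earlier results of these data known. The procedure was tested on simulated data. Alternatives were other normalization, centring, filters on dim probe sets, 1 probe set per gene, no _x_at probe sets, limma with a trend, the methods' ANOVA, fold limits, a mean contrast, a replicate block, fits of each compound alone and leaving out each array. Leaving out the 5-NA arrays was added after seeing the data. Motifs were searched in RefSeq promoters with Python 3.11.15, and figures drawn with matplotlib 3.10.9.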

Additional observations from a re-analysis of the deposited data

Results flagged for a closer look

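Some genes that changed in the same direction with all 3 compounds differed between compounds by at least 2-fold in limma's direct test of the difference, adjusted over all probe sets and the 3 pairs. Among the rises, CHAC1 had a 5-NA minus EerI difference of -1.22 on the log2 scale (adjusted p = 0.00146) and a 5-NA minus CBU-028 difference of -1.54 (adjusted p = 0.000678). DDIT4 had differences of -1.32 for 5-NA against both EerI and CBU-028 (adjusted p = 0.0004 for both). For STC2 5-NA minus CBU-028 was -1.16 on the leading probe set (adjusted p = 0.0004). On its other probe set the difference was under 2-fold, at -0.85 (adjusted p = 0.00151 from limma). Among the falls, CBU-028 minus EerI was -1.09 for the leading probe set of IGFBP5 (adjusted p = 0.000721) and -1.70 for IFIT1 (adjusted p = 0.000219). ND6 was higher with 5-NA than with EerI by 1.19 (adjusted p = 0.00234) and than with CBU-028 by 1.44 (adjusted p = 0.00118). In each of these pairs the 2 arrays of the lower group lay below the 2 of the other. The arrays of 5-NA are those whose titles carry the experiment number of a different compound.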

How the results depend on the processing

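No gene named by rank changed direction under the alternatives for which single genes were recomputed, but this was largely fixed by the selection. These genes were chosen because every treated array lay beyond both controls, so leaving out an array could not reverse a difference. The other fits used the same values, and only renewed normalization and centring altered them. The unchanged directions are therefore not a test of these genes. The counts of tested probe sets moved most. By limma, 62 probe sets were higher and 15 lower with all 3 compounds. These counts became 98 and 39 with a mean log2 value of at least 7, 150 and 53 with a trend, 40 and 4 with each compound fitted with control alone, 27 and 2 with a 2-fold limit, and 1984 and 2193 for the contrast of the mean of the 3 compounds, which does not require a change with each. The methods' ANOVA gave 922 and 1219 unadjusted and 12 and 2 adjusted, and among the 29 probe sets past 2-fold it then separated 7 between CBU-028 and EerI and 11 between 5-NA and CBU-028, where limma separated 12 and 17. After adjustment that ANOVA passed 4 PERK/ATF4 targets and 1 amino acid transporter, against 18 and 6 by limma. Of the genes named by rank, 23 that passed limma's test did not pass it. With EerI and CBU-028 arrays only, 107 were higher and 25 lower, 6541 lay above and 6978 below both controls, and 49 were past 2-fold upward. Above both controls lay 2600 probe sets with a mean of at least 7, and 1526 genes above, 2217 below and 1 past 2-fold downward with 1 probe set per gene. The replicate numbers do not pair the arrays, as deviations of same-numbered arrays correlated between -0.146 and 0.146, and a fit with the replicate block gave 54 higher and 9 lower.

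Leaving out each array in turn gave 4504 to 8357 probe sets above and 5125 to 8350 below, 1 to 2 past 2-fold downward, 27 to 74 higher and 2 to 18 lower by limma, and 7 to 12 separated between CBU-028 and EerI. The extremes above and below came without a control array, since a single control is easier to exceed. Without either CBU-028 array 18 PERK/ATF4 genes passed, as with all arrays, and 27 to 28 of them lay above the controls throughout. Of the 20 named rises, 19 passed with any array left out and HERPUD1 in 6 of 8 cases, whereas only IGFBP5 and DEPP1 did among the falls. VCAN and GAS1 passed in 3 cases and PHACTR3, IFIT1 and EBF2 in 2. All but 2 at most of the 29 probe sets past 2-fold were kept each time. With 2 arrays per group, no smallest difference under 0.54 passed.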
